A study of Rattus norvegicus with 63 samples.

Results

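The lateral hypothalamus of rats with long daily access to cocaine was compared with that of rats that never had the drug. The comparison used 8 of the 63 arrays of the series, taken by their titles: 4 labelled long access and 4 labelled no access, over all 1263 non-control probe sets of the array. Long access rats had 6 h per day on a continuous schedule of intravenous cocaine self-administration at 0.25 mg per injection, and no access rats were drug-naive with 0 h. Another 4 arrays came from rats with 1 h per day (short access), and they entered the same fit. The labels give 8 rats per access group and no strain, age or sex, and nothing in them says how many rats an array stands for. Every p below therefore measures only the spread between these arrays.

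The lateral hypothalamus is a node of the circuits for feeding, arousal and reward. Its best known neurons release the peptides orexin (hypocretin) or melanin-concentrating hormone, and its fibres reach the dopamine neurons of the ventral tegmental area. Cocaine blocks the transporters that clear dopamine, noradrenaline and serotonin from the synapse. On the array used here a transcript is read by a probe set, a group of short oligonucleotides whose signal is given as log2 after each array was scaled to the same mean, so that a difference of 1 is a doubling. Signals of different probe sets are not levels that can be ranked between genes.

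The tissue label was checked against hypothalamic transcripts on the no access arrays. Oxytocin (Oxt) had a mean log2 signal of 13.16 in the lateral hypothalamus against 5.49 to 8.94 in the other 5 regions, and galanin (Gal) 9.33 against 5.00 to 5.32, where 5.00 is the floor. Vasopressin (Avp, probe set M25646) stood at 13.11 against 7.46 to 10.27. Sncg, at 9.31, was higher in the ventral tegmental area (10.23), and Nnat and Pdyn were as high or higher in another region. These peptides are also made in neighbouring hypothalamic nuclei, so that they mark hypothalamus and not its lateral part. The peptides that define its lateral part (Hcrt, Pmch, Cartpt) were not analysed here.

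Before any gene is described, the control probe sets have to be set beside the result, because they separated the same 2 groups of arrays. The 9 bacterial spike-in probe sets, which read foreign transcripts that are usually added in fixed amounts, had mean log2 signals of 12.17, 11.94, 12.18 and 11.94 on the no access arrays and 11.50, 11.47, 11.36 and 11.23 on the long access arrays. The difference was -0.66 (exact permutation test over arrays, two-sided, p = 0.0286, the smallest that 4 against 4 arrays allow). The 6 antisense rat controls, which carry the strand opposite to that of the actin and Gapdh messages, read 7.84, 8.22, 8.14 and 8.33 without access and 6.55, 6.73, 6.87 and 6.87 with long access, a difference of -1.38 (exact permutation p = 0.0286). Every no access array was above every long access array in both measures. Single spike-ins differed by -0.93 to -0.44, with 8 of 9 not overlapping, and single antisense controls by -1.95 to -0.51, with 5 of 6 not overlapping. The antisense probe set for the middle of actin, for example, read 8.37, 8.52, 8.55 and 8.82 without access against 6.31, 6.69, 6.69 and 6.76 with long access.

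Short access arrays resembled the long access arrays in the antisense controls, at 6.76, 6.73, 6.79 and 7.09, and overlapped them in the spike-ins, at 11.42, 11.84, 11.35 and 11.85. Between long and short access the antisense difference was -0.09 (exact permutation p = 0.514) and the spike-in difference -0.22 (p = 0.257). Of the 51 arrays of other regions, 3 reached the lowest no access array of the lateral hypothalamus in the antisense controls and 6 in the spike-ins. In the ventral tegmental area the same controls were higher with long than with no access, by 0.93 and 0.77. The 9 antisense probe sets of the bacterial transcripts were also lower with long access, by a mean of -0.56 (exact permutation p = 0.0286). Other measures were not separated by the test: the 3′ to 5′ signal ratios, a sign of RNA integrity, differed by -0.05 for actin (exact permutation p = 0.657) and -0.08 for Gapdh (p = 0.143), and 23 other controls by -0.04 (p = 0.6). In a design of 4 against 4 arrays, access and the control difference cannot be told apart. The main results are therefore given with up to 2 further values, the difference in a fit with the spike-in level of the array as a covariate and the difference between long and short access.

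**Figure D1:**
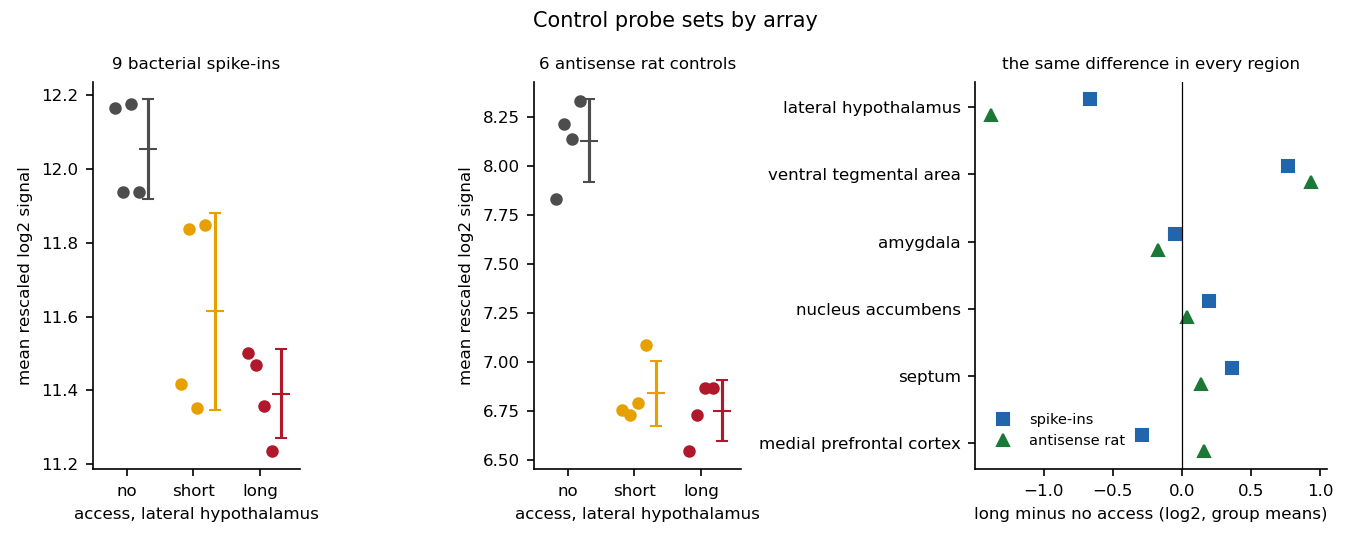
Mean rescaled log2 signal of the spike-in and antisense rat controls on each lateral hypothalamus array by access group (points; dash and bar: mean ± SD, n = 4), and the long minus no access difference of group means in each of the 6 regions (squares: spike-ins, triangles: antisense rat). The 4 no access arrays lie above the 4 long access arrays in both measures, with differences of -0.66 and -1.38, while the ventral tegmental area shows 0.77 and 0.93.

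Of the 1263 probe sets, 718 passed the filter on low signal (a mean of at least 100 over the 12 arrays, whatever their access) and 545 did not. At an adjusted p under 0.05 (limma, Benjamini-Hochberg over all 718), 213 probe sets or 29.7% were called: 96 (13.4%) higher and 117 (16.3%) lower with long access. The called probe sets with 1 gene symbol stood for 152 genes. Most differences were small. Among those higher, 14 were at least 2-fold, 34 between 1.5 and 2-fold and 48 under 1.5-fold, and among those lower 10, 33 and 74. At least 1.5-fold were 91 in all (12.7%), 48 higher (6.69%) and 43 lower (5.99%). The 2 groups of arrays did not overlap in 86 of the 96 and 98 of the 117, beside 13.8% of all probe sets tested with every long access array above and 16% with every one below.

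Calls were more common where signals were bright. Ranked by mean signal, 14.2% of the 240 dimmest, 29.7% of the 239 in the middle and 45.2% of the 239 brightest probe sets were called, while the median size of a difference hardly changed, at 0.23, 0.25 and 0.25. The median SD among the 4 no access arrays went from 0.31 to 0.21 and 0.14 over the same classes. In the fit with the spike-in covariate 41 probe sets (5.71%) were higher and 21 (2.92%) lower. Of the 213, 206 kept their direction (92 of those higher, 114 of those lower) and 57 kept their call, with the median SE up from 0.12 to 0.23 for those higher and from 0.11 to 0.22 for those lower. With the antisense level as the covariate none was called (limma; 123 at an unadjusted p under 0.05), and 174 of 213 kept their direction. Between long and short access, 36 probe sets (5.01%) were higher and 28 (3.9%) lower (50 and 53 with the replicate number as a block), and between short and no access, which shares the no access arrays, 74 (10.3%) and 87 (12.1%).

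**Figure D2:**
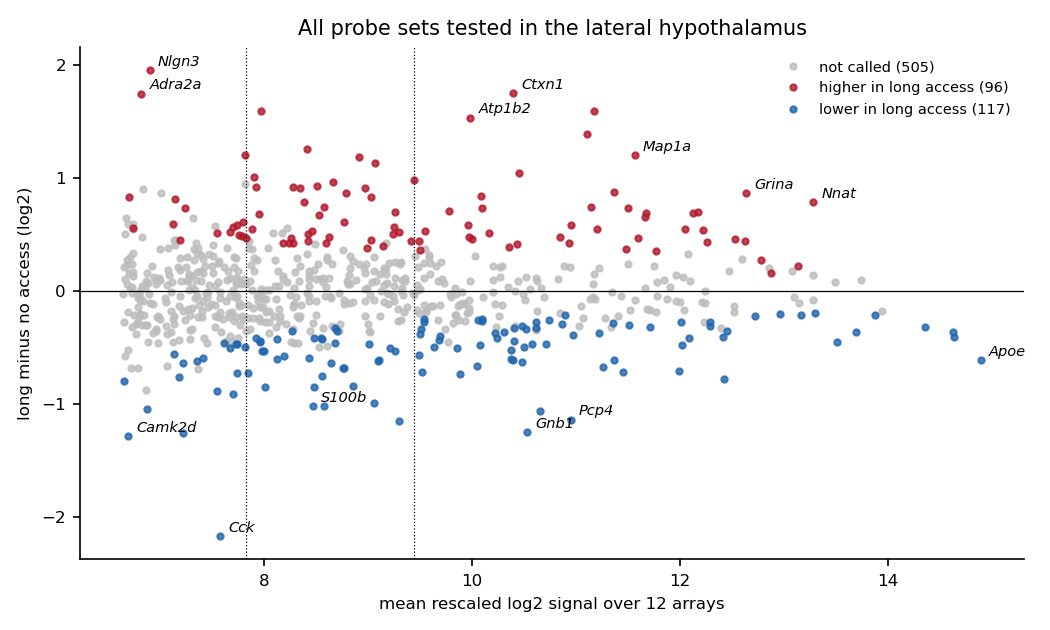
Long minus no access difference (log2) of the 718 probe sets tested against their mean rescaled log2 signal over the 12 lateral hypothalamus arrays, with the 96 called higher in red, the 117 called lower in blue and dotted lines between the 3 classes of signal. Cck, at -2.16, and Nlgn3, at 1.95, lie farthest from 0, and called probe sets are denser to the right, where 45.2% were called.

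The neuropeptides gave the largest single fall. Cholecystokinin (Cck), a peptide co-released by many neurons of the forebrain and midbrain, read 8.50, 8.29, 8.65 and 8.73 on the no access arrays and 6.32, 7.12, 5.55 and 6.54 on the long access arrays. The groups were far apart, and short access lay between them at a mean of 7.80. The signal on long access array 3 lay below the mean of the bacterial antisense controls of that array (5.59), so that the size of the fall is uncertain. The difference was -2.16 ± 0.29 (log2, SE; adjusted p = 7.27e-05), or -2.80 with the spike-in covariate (adjusted p = 0.00795), and long access was also below short access (-1.41, adjusted p = 0.00912). In the nucleus accumbens the long minus no access difference of Cck was -1.31, and in the other 4 regions it was -0.42 to 0.08. Vgf, a secreted neuronal protein cut into peptides that affect energy balance, read 10.74, 10.81, 10.50 and 10.57 without access and 11.37, 11.54, 11.30 and 11.38 with long access. All long access arrays were higher, by 0.74 ± 0.09 (adjusted p = 3.42e-05), but short access was high too, at a mean of 11.37. These were the only 2 of 11 neuropeptide genes called, 1 higher and 1 lower.

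The peptides that mark the tissue were not called. Oxytocin read 13.25, 13.08, 13.22 and 13.07 without access and 13.01, 13.16, 13.06 and 13.18 with long access, a difference of -0.05 ± 0.08 (adjusted p = 0.648), with overlapping groups. Galanin differed by 0.38 ± 0.14 (adjusted p = 0.0505) and prodynorphin (Pdyn), the precursor of dynorphin, by 0.31 ± 0.15 (adjusted p = 0.132), both with overlap. For vasopressin, probe set M64785 gave -0.33 ± 0.15 (adjusted p = 0.109) and M25646 -0.10 (adjusted p = 0.637). Neuropeptide Y, somatostatin, proenkephalin, Tac1 and Tac3 differed by -0.28 to 0.25 and were not called either. Over the 11 genes the median difference was 0.01, beside -0.04 over all 451 genes tested, of which 12% were higher and 16.6% lower (1 probe set per gene, the brightest). The counts of every list below are to be read beside these shares.

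Of the orexin receptors, which transmit the main arousal signal of this region, only the first was called. Hcrtr1 read 8.14, 8.17, 8.35 and 8.34 without access and 7.97, 7.88, 7.22 and 7.82 with long access, with no overlap. Its difference of -0.53 ± 0.17 was called (adjusted p = 0.0312) but was lost with the spike-in covariate (-0.74, adjusted p = 0.22), with no filter on low signal (adjusted p = 0.066), in 1 fit of all 63 arrays (adjusted p = 0.23) and when 1 array was left out: without no access array 3 (-0.50, adjusted p = 0.0745), no access array 4 (-0.50, adjusted p = 0.0652) or long access array 3 (-0.36, adjusted p = 0.0846). Hcrtr2 was near the low end of the signals tested, with group means of 6.95 and 6.75, and differed by -0.21 ± 0.24 (adjusted p = 0.575). Hcrtr1 was the only called gene of 8 peptide receptors tested, whose median difference was -0.16.

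Among 23 glutamate genes, 4 were higher, 2 lower and 17 not called, with a median difference of 0.06. Over all genes 12% were higher and 16.6% lower. Grin2d, an NMDA receptor subunit with slow kinetics found in the diencephalon and brainstem, read 8.13, 8.37, 7.97 and 8.27 without access and 9.28, 9.41, 9.37 and 9.42 with long access. It rose by 1.18 ± 0.11 (adjusted p = 4.08e-06), its other probe set by 1.01, and the rise kept its call with the spike-in covariate (1.21, adjusted p = 0.00586). Short access was nearly as high, at 9.20. The obligatory NMDA subunit Grin1 was higher by 0.45 (adjusted p = 0.0479) and the kainate subunit Grik5 by 0.46 (adjusted p = 0.0153), both with overlapping groups. The NMDA subunit Grin2c was higher by 0.51, although a second probe set of Grin2c was called lower at -0.72. Grina, a membrane protein once described as glutamate binding, read 12.29, 12.10, 12.22 and 12.07 without access and 13.09, 13.05, 13.09 and 12.94 with long access. It had 2 probe sets higher, the brighter by 0.87 ± 0.08 (adjusted p = 2.03e-06; 1.14 with the spike-in covariate, adjusted p = 0.000217).

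Of the falls, the kainate receptor subunit Grik4 read 8.81, 8.94, 8.84 and 9.08 without access and 8.17, 8.25, 8.30 and 7.95 with long access. Its difference was -0.75 ± 0.12 (adjusted p = 0.000337), and its second probe set, at -0.36, was not called (adjusted p = 0.208). The metabotropic receptor Grm3 was lower too, at -0.26, with overlapping groups and close to the threshold (adjusted p = 0.0498). Gria3 and Gria1, subunits of AMPA receptors, show how far probe sets of a gene can part. The probe set X54656 of Gria3 differed by -1.04 ± 0.20 (adjusted p = 0.0014) and M36420 by -0.06 (adjusted p = 0.899). For Gria1, X17184 read 7.01, 7.03, 6.97 and 6.61 against 6.002, 6.13, 6.08 and 6.22, or -0.80 ± 0.18 (adjusted p = 0.00384), while the brighter M36418 gave 0.09 and S56679 gave -0.26, neither called. At the brightest probe set of each gene no AMPA subunit tested was called. None of these falls was called with the spike-in covariate (limma): Grik4 was at -0.71 (adjusted p = 0.103), X54656 of Gria3 at -0.81 (adjusted p = 0.252) and X17184 of Gria1 at -0.56 (adjusted p = 0.383). The list then held 2 genes higher and 0 lower.

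In the GABA and glycine list 2 of 15 genes were higher, 1 lower and 12 not called, with a median of 0.00. The shares over all genes were 12% higher and 16.6% lower. Slc32a1, the vesicular transporter that loads GABA and glycine, read 11.77, 11.71, 11.57 and 11.62 without access and 12.31, 12.50, 12.28 and 12.36 with long access. All long access arrays were higher, by 0.69 ± 0.07 (adjusted p = 5.71e-06; 0.65 with the spike-in covariate, adjusted p = 0.0112), and a second probe set gave 0.93. Short access, at 12.34, lay beside long access. The GABA-B receptor subunit Gabbr2 rose by 0.48 ± 0.11 (adjusted p = 0.00455), from 10.56, 10.27, 10.39 and 10.36 to 11.07, 11.001, 10.81 and 10.61, yet short access was higher still at 11.27 (long minus short -0.40, adjusted p = 0.0398). Its 2 other probe sets, at 0.37 and 0.09, were not called. The glycine receptor subunit Glra2 was lower at -0.42 (adjusted p = 0.0187), a call lost without long access array 1 (-0.39, adjusted p = 0.0509). Gad1, which makes GABA, was not called at 0.24.

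The monoamine list gave 2 higher, 2 lower and 14 not called of 18, beside 12% higher and 16.6% lower over all genes. Adra2a, the alpha-2A receptor through which noradrenaline limits its own release, read 5.40, 5.93, 5.28 and 6.16 without access, 7.44, 7.24, 7.61 and 7.001 with short access and 7.40, 7.56, 7.42 and 7.37 with long access. Both cocaine groups lay above all no access arrays. The no access signals are close to the floor of 5.00 and below the mean of the bacterial antisense controls on the same arrays (6.13, 6.20, 6.38 and 6.49), so that the size of the difference has no measured baseline. It was 1.75 ± 0.22 (adjusted p = 3.42e-05) and was not called with the spike-in covariate (1.02, adjusted p = 0.11). Monoamine oxidase A (Maoa), which breaks down noradrenaline and serotonin, had 3 probe sets, all lower, at -0.60, -0.44 and -0.34. The strongest read 10.67, 10.78, 10.87 and 10.73 without access and 10.35, 10.03, 10.27 and 10.0002 with long access (adjusted p = 0.000311; -0.56 with the spike-in covariate, adjusted p = 0.103). Its relative Maob fell by 0.36 (adjusted p = 0.0165), a call lost without no access array 1 (-0.31, adjusted p = 0.0539), no access array 3 (-0.31, adjusted p = 0.0528) or long access array 2 (-0.31, adjusted p = 0.0535).

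Most markers of dopamine neurons were dim in this tissue. Tyrosine hydroxylase (Th), the first enzyme of catecholamine synthesis, read 9.16, 8.96, 8.99 and 8.96 without access and 9.11, 9.73, 9.64 and 9.68 with long access, and the groups overlapped because long access array 1 was low. The difference of 0.52 ± 0.15 was called (adjusted p = 0.0194) but not without long access array 2 (0.46, adjusted p = 0.0607), array 3 (0.49, adjusted p = 0.0503) or array 4 (0.48, adjusted p = 0.053). The dopamine transporter Slc6a3 differed by -0.88 ± 0.39 (adjusted p = 0.112), with 1 long access array at 5.002, next to the floor. Ddc, the other marker tested, had 2 probe sets, both with differences opposite in sign to that of Th. The brighter gave -0.22 and was not called (adjusted p = 0.192). The dimmer was called lower, at -0.35 (adjusted p = 0.045). That call was lost with the spike-in covariate and in several fits with 1 array left out. For example, dropping replicate 3 of the no access group gave -0.31 (adjusted p = 0.117). Of the 7 dopamine neuron markers on the array, Slc18a2, Drd2, Chrna6 and Chrnb3 were under the filter. Their summed signal over the 3 tested overlapped between groups, at 10.31 to 10.52 without and 10.25 to 10.57 with long access (log2).

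Synaptic vesicle and release genes held 6 higher, 2 lower and 12 not called of 20, with a median difference of 0.06. Over all genes 12% were higher and 16.6% lower. Synapsin 1 (Syn1), which tethers vesicles in the reserve pool, read 9.76, 9.78, 9.64 and 10.24 without access and 10.99, 10.89, 10.97 and 10.76 with long access. It rose by 1.05 ± 0.11 (adjusted p = 1.06e-05; 0.99 with the spike-in covariate, adjusted p = 0.0169). Synaptotagmin 11 (Syt11) read 9.23, 9.36, 9.07 and 8.97 without access, 8.96, 9.17, 8.91 and 9.08 with short access and 10.22, 10.26, 9.90 and 10.17 with long access. The long access arrays stood apart from both other groups, above no access by 0.98 ± 0.11 (adjusted p = 1.86e-05) and above short access by 1.11 (adjusted p = 7.59e-05). The calcium sensor Syt3 behaved alike, 0.91 over no access (adjusted p = 2.06e-05) and 0.75 over short access (adjusted p = 0.000751).

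Rab3a, a vesicle GTPase, rose by 0.88 ± 0.12 (adjusted p = 0.000113) and was also above short access, by 0.59 (adjusted p = 0.0108). Synaptophysin (Syp), the membrane protein used as a marker of synaptic vesicles, read 11.70, 11.71, 11.70 and 11.69 without access, 11.53, 11.61, 11.55 and 11.56 with short access and 11.97, 12.08, 12.05 and 12.12 with long access. Its spread was small, and long access was above no access by 0.36 ± 0.06 (adjusted p = 0.00031) and above short access by 0.49 (adjusted p = 0.000194). Synj1, an inositol phosphatase of vesicle recycling, was the sixth gene higher, at 0.53. The syntaxins Stx8 and Stx5, which act in endosomal and Golgi traffic, were lower at -0.59 and -0.32, but a second probe set of each, at 0.09 and 0.07, was not called. With the spike-in covariate 5 genes of the list were higher and 0 lower.

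**Figure D3:**
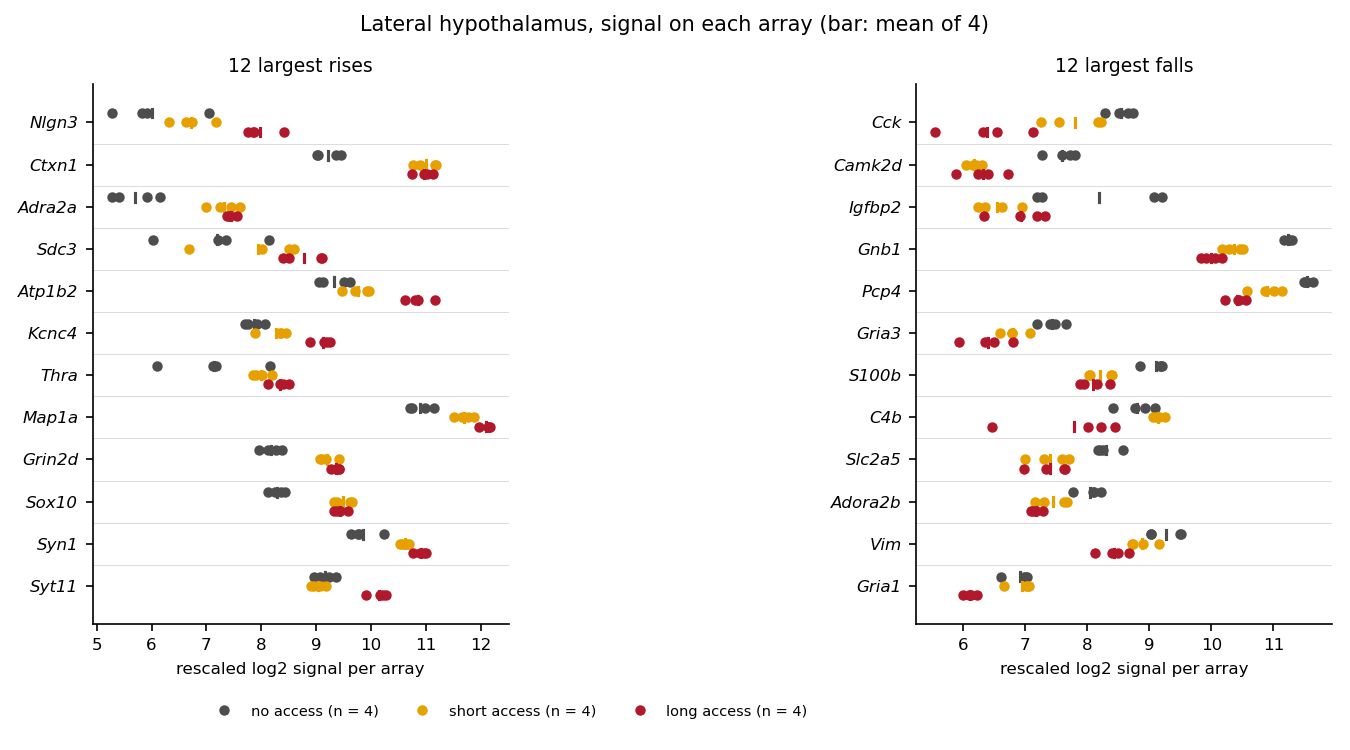
Rescaled log2 signal on each of the 12 lateral hypothalamus arrays (points, coloured by access; bars: mean of 4) for the 12 genes with the largest called rises and the 12 with the largest called falls. Long and no access overlap for Thra, Igfbp2 and C4b only, and short access lies with long access for some genes (Ctxn1, Adra2a, Camk2d) and with no access for others (Syt11, Gria1).

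Of 24 genes of signalling through calcium, cyclic AMP and protein kinase C, 1 was higher, 7 lower and 16 not called, with a median of -0.13, beside 12% higher and 16.6% lower over all genes. The counts were 0 higher and 3 lower with the spike-in covariate (limma). Gnb1, the beta-1 subunit of heterotrimeric G proteins, had 5 probe sets tested, all lower, at -1.25, -1.15, -1.06, -0.60 and -0.42. The first read 11.17, 11.30, 11.25 and 11.24 without access and 9.84, 10.06, 9.91 and 10.17 with long access (adjusted p = 8.69e-07), with short access between at 10.36 (long minus short -0.37, adjusted p = 0.0275). With the spike-in covariate it was -1.11 (adjusted p = 0.0039). Pcp4, a small modulator of calmodulin, read 11.49, 11.54, 11.64 and 11.50 without access and 10.44, 10.43, 10.22 and 10.55 with long access. It fell in steps over the 3 groups, with short access at 10.89, by -1.14 ± 0.11 against no access (adjusted p = 4.71e-06; -1.50 with the spike-in covariate, adjusted p = 0.000519) and -0.49 against short access (adjusted p = 0.016).

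The calcium-dependent kinase Camk2d had 4 probe sets that did not move together. The one with the smallest p read 7.26, 7.80, 7.59 and 7.72 without access and 6.40, 6.24, 6.72 and 5.88 with long access, or -1.28 ± 0.20 (adjusted p = 0.000283), 2 others gave -0.48 and -0.76 and were called, and the fourth gave 0.07 (adjusted p = 0.82). The remaining calls at the brightest probe set were Prkcb (-0.52), Calm2 (-0.35), Plcb1 (-0.50) and Ppp3ca (-0.27), which code for a protein kinase C, calmodulin, a phospholipase C and the catalytic subunit of calcineurin. The other 2 probe sets of Prkcb, at 0.33 and 0.14, were not called. Ncs1, a neuronal calcium sensor, was the gene that rose, by 0.61. Gnao1, the alpha subunit of Go, was higher at one probe set (0.74 ± 0.10, adjusted p = 0.000113) and at 0.03 at the brighter one, which was not called.

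Potassium channels gave 4 higher and 3 lower of 22, beside 12% higher and 16.6% lower over all genes. Kcnc4, a voltage-gated channel of the Kv3 family, read 7.71, 7.92, 7.76 and 8.07 without access and 9.26, 9.14, 8.89 and 9.19 with long access, with 8.26 as the short access mean. It rose by 1.26 ± 0.14 (adjusted p = 1.72e-05; 1.48 with the spike-in covariate, adjusted p = 0.00586), and long exceeded short access by 0.86 (adjusted p = 0.00213). Its relative Kcnc2 moved the opposite way, by -0.61 ± 0.12 (adjusted p = 0.00162), while its other probe sets, at -0.45 and -0.29, were not called. Kcnj10, the inward rectifier of glia that buffers potassium, read 8.34, 8.19, 8.003 and 8.20 without access, 7.52, 7.74, 7.31 and 8.51 with short access and 9.05, 9.08, 9.13 and 9.12 with long access. It was higher by 0.91 ± 0.20 (adjusted p = 0.00328), and long exceeded short access by 1.33 (adjusted p = 0.000944). Kcna6 and Kcnq3 were higher at 0.56 and 0.49, and Kcnj16 and Kcnj11 lower at -0.60 and -0.24, with a second probe set of Kcnj11 at 0.23 and not called. The call of Kcna6 (adjusted p = 0.0268) was lost without no access array 1 (adjusted p = 0.0522), no access array 4 (0.49, adjusted p = 0.056) or long access array 1 (0.48, adjusted p = 0.0747).

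Among the other channels and pumps 3 of 25 were higher and 3 lower, near the 12% and 16.6% of all genes. Atp1b2, a beta subunit of the sodium pump found in astrocytes, read 9.12, 9.61, 9.05 and 9.51 without access, 9.70, 9.96, 9.47 and 9.93 with short access and 10.81, 11.16, 10.62 and 10.85 with long access. Long access stood clear of both other groups, by 1.54 ± 0.15 against no access (adjusted p = 5.09e-06) and 1.09 against short access (adjusted p = 0.000751). With the spike-in covariate the first was 1.72 (adjusted p = 0.00556), and a second probe set gave 1.39. The beta-1 subunit Atp1b1 fell, at -0.31 (0.18 and not called at a second probe set), and so did the calcium pump Atp2b2, at -0.33 (adjusted p = 0.0176), a call lost without no access array 1 (-0.28, adjusted p = 0.058). Its 3 other probe sets, at 0.05 to 0.52, were not called. The sodium channel Scn2a was higher at 0.57 and Scn1a lower at -0.62 ± 0.17 (adjusted p = 0.0153), and the lysosomal chloride transporter Clcn7 was higher at 0.81.

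Cytoskeletal and adhesion genes held 3 of the 5 largest rises of named genes. Ctxn1 (cortexin), a small membrane protein of neurons, read 9.45, 9.04, 9.36 and 9.01 without access, 11.18, 11.17, 10.77 and 10.88 with short access and 10.96, 11.12, 10.74 and 11.02 with long access. Both cocaine groups lay more than 1 log2 unit above every no access array and overlapped each other. The rise was 1.75 ± 0.13 (adjusted p = 8.69e-07) and 2.04 with the spike-in covariate (adjusted p = 0.000302). Nlgn3, a postsynaptic adhesion protein that binds neurexins, read 5.28, 7.05, 5.82 and 5.91 without access, 6.74, 6.62, 6.32 and 7.17 with short access and 7.84, 8.40, 7.87 and 7.76 with long access. Its rise was 1.95 ± 0.32 (adjusted p = 0.00031), of uncertain size because 3 of the 4 no access signals lay below the bacterial antisense controls of their arrays, and long exceeded short access by 1.25 (adjusted p = 0.0256), but with the covariate the value of 2.02 was not called (adjusted p = 0.0761). The cell surface proteoglycan Sdc3, known for its role in feeding through melanocortin signalling, ranged widely without access, at 7.35, 8.14, 6.03 and 7.22, and rose by 1.59 ± 0.43 (adjusted p = 0.0128; 0.64 with the covariate, adjusted p = 0.724).

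Map1a, a microtubule protein of mature neurons, read 11.14, 10.71, 10.98 and 10.75 without access and 11.97, 12.16, 12.14 and 12.13 with long access. Short access was between, at 11.70, and the rise over no access was 1.20 ± 0.10 (adjusted p = 1.76e-06; 1.57 with the covariate, adjusted p = 0.000217). Tau (Mapt) rose by 0.44 ± 0.06 and was called at 2 of its 3 probe sets (0.33 to 0.47). The neurofilament genes Nefh and Nefm fell by 0.41 and 0.37, although a second probe set of Nefh rose by 0.49. In all, 3 of 11 cytoskeletal genes were higher and 2 lower, beside 12% and 16.6% of all genes. Of 15 adhesion genes 4 were higher (Nlgn3, Sdc3, Nrxn2 at 0.39 and Nptxr at 0.44) and 1 lower (Nrp1, at -0.46), with a median of 0.23. With the spike-in covariate none of the adhesion genes was called in either direction (limma).

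Trophic genes were split, with 4 higher, 4 lower and 16 not called of 24, beside 12% higher and 16.6% lower over all genes. The growth factor Vegfb read 8.43, 8.38, 8.50 and 8.18 without access and 9.32, 9.32, 8.91 and 9.30 with long access and rose by 0.84 ± 0.11 (adjusted p = 8.54e-05). Pdgfa, a growth factor for oligodendrocyte precursors, was higher at all 3 of its probe sets, by 0.66, 0.79 and 0.59, and Fgfr1 at both of its own, by 0.71 and 0.70. Cntf, Pdgfra, Tgfa and Igfbp5 were lower, at -0.62, -0.49, -0.46 and -0.63, while second probe sets of Pdgfra (-0.29) and Igfbp5 (0.08) were not called. The BDNF receptor Ntrk2, in the list of kinases, rose by 0.43 ± 0.10 (adjusted p = 0.00414; 0.84 with the covariate, adjusted p = 0.00402), while Bdnf itself was not called at -0.16. In that list 3 of 14 were higher, with Mapk14 (0.45) and Mapk9 (0.43), and 2 lower, the Src-family kinase Fyn at -0.49 and Map2k1 at -0.32. Mapk14 was called at 2 of its 5 probe sets (-0.03 to 0.83), Mapk9 at 1 of 3 (-0.43 to 0.43) and Map2k1 at 1 of 3 (-0.44 to -0.05).

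Of 14 activity-induced genes 0 were called higher and 3 lower (limma, brightest probe set), beside the 12% and 16.6% of all genes. Egr1, an immediate early gene, read 10.06, 10.06, 9.79 and 10.05 without access and 9.38, 9.17, 9.50 and 9.05 with long access, a difference of -0.72 ± 0.11 (adjusted p = 0.000212; -0.85 with the covariate, adjusted p = 0.0285). Short access was as low, at 9.29, and 2 dimmer probe sets of Egr1, at 0.38 and 0.04, were not called. Fos was not called at either of its probe sets, 0.38 ± 0.16 (adjusted p = 0.0832) and 0.05. The protease Plat differed by -0.46, a call lost without long access array 1 (-0.41, adjusted p = 0.0516) or 2 (-0.40, adjusted p = 0.0564). The cyclic AMP response modulator Crem, at -0.46 (adjusted p = 0.0344), was lost without any 1 of 6 arrays, no access 1, 2 or 3 or long access 1, 2 or 4, with values of -0.49 to -0.41 and adjusted p from 0.0515 to 0.087.

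Stress and survival genes gave 3 higher and 4 lower of 19, beside 12% higher and 16.6% lower over all genes. Bcl2l1, which blocks apoptosis, was higher at all 3 probe sets, by 0.87, 0.67 and 0.96, reading 8.36, 8.47, 8.19 and 8.57 without access and 9.29, 9.45, 9.21 and 9.12 with long access at the first. Bax, Bad and Casp2 were lower at -0.29, -0.32 and -0.50 at their brightest probe sets. They are known to promote apoptosis, but so are Bcl2l11 (0.06), Bok (-0.02) and Hrk (-0.14), none of which was called. The other 2 probe sets of Bax, at -0.23 and -0.14, were not called either, and at its called probe set the groups overlapped (adjusted p = 0.0495). A second probe set of Bad gave 0.09, and the call of the first (adjusted p = 0.0214) was lost without no access array 1 (-0.28, adjusted p = 0.0628), no access array 2 (-0.30, adjusted p = 0.0534) or long access array 3 (-0.24, adjusted p = 0.0627). The superoxide dismutases parted, Sod1 at -0.42 and the extracellular Sod3 at 0.69. Hsp90ab1, a chaperone, was higher at 0.28. The 8 acetylcholine genes tested and the 3 hormone receptor genes had 0 calls at the brightest probe set (limma). In the adenosine and purine list the receptor Adora2b was the 1 call of 7, -0.88 ± 0.15 (adjusted p = 0.000543), lost with the covariate (-0.88, adjusted p = 0.103), and Adora1 was not called at -0.44.

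**Figure D4:**
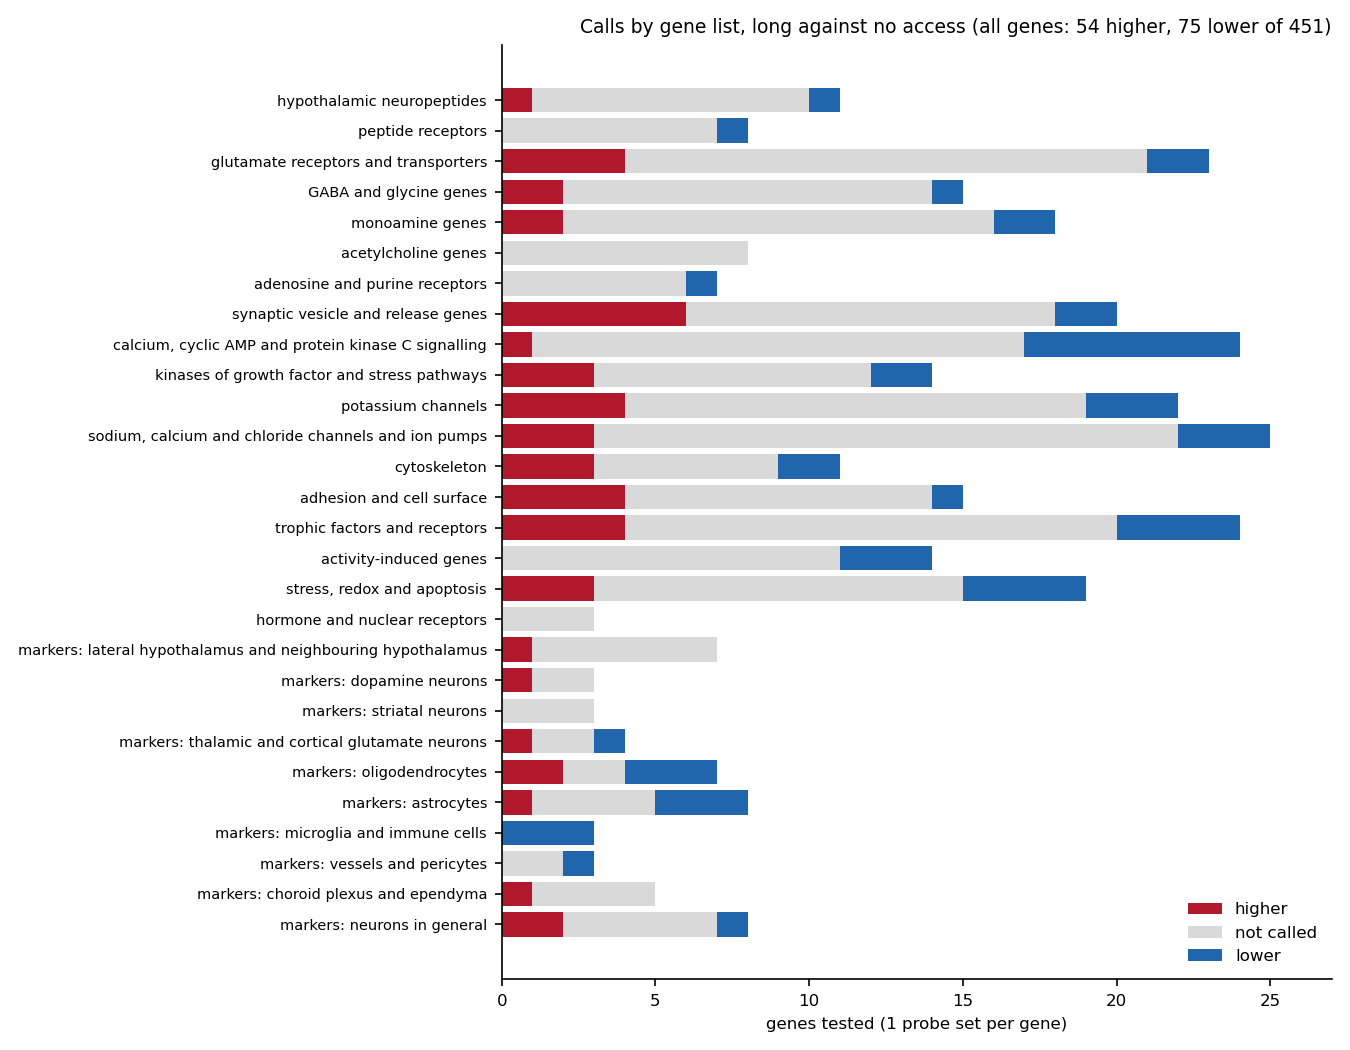
Number of genes tested in each list (1 probe set per gene) that were called higher (red), lower (blue) or not called (grey) between long and no access arrays. Synaptic vesicle genes hold 6 higher and 2 lower, calcium and cyclic AMP signalling genes 1 higher and 7 lower, beside 54 higher and 75 lower of all 451 genes.

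Some markers of other cell types moved with the groups as well. All 3 immune markers tested were lower, beside 16.6% of all genes. They were B2m, a subunit of class I MHC, at -0.67 (adjusted p = 0.000212), the cytokine Il18 at -0.59 (adjusted p = 0.00633) and complement C4b at -1.01 (adjusted p = 0.0277). Their summed log2 signal was 11.77 to 12.004 without access and 10.84 to 11.38 with long access, with no overlap. C4b read 8.41, 9.09, 8.76 and 8.92 without access and 8.01, 8.21, 6.46 and 8.44 with long access and overlapped. Without long access array 3 its difference was -0.57 (adjusted p = 0.0159), and the call was lost without no access array 2 (-0.92, adjusted p = 0.0674), 3 (-1.02, adjusted p = 0.0502) or 4 (-0.97, adjusted p = 0.0559). Il1b, Tnf, Ccl2, Itgam and Tspo were under the filter, Tnf at the floor on all 8 arrays. With the spike-in covariate 0 of the 3 were called (limma).

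Of 8 astrocyte markers tested 1 was higher (Kcnj10) and 3 lower, beside 12% and 16.6% of all genes. Apoe, the lipid carrier released by astrocytes, read 14.99, 15.16, 15.31 and 15.30 without access and 14.30, 14.51, 14.72 and 14.80 with long access, or -0.61 ± 0.11 (adjusted p = 0.000881), and a second probe set gave -0.40. The call of Apoe was lost with quantile normalization (-0.06, adjusted p = 0.35) and with the spike-in covariate (-0.58, adjusted p = 0.138). Vimentin (Vim) read 9.03, 9.49, 9.02 and 9.51 without access and 8.12, 8.67, 8.49 and 8.40 with long access, or -0.84 ± 0.16 (adjusted p = 0.000933; -0.81 with the covariate, adjusted p = 0.135, not called), and glutamine synthetase (Glul) was lower at -0.21. S100b was at -1.02 (adjusted p = 9.99e-05) at a dim probe set and at -0.18, not called, at a bright one. The glutamate transporters Slc1a2 and Slc1a3 were not called, at 0.11 and -0.07. The summed astrocyte signal lay at 16.06 to 16.22 without access and 15.57 to 15.89 with long access. Slc2a1, the glucose transporter of brain vessels, read 11.70, 11.97, 11.94 and 11.82 without access and 10.98, 10.98, 11.44 and 11.19 with long access and fell, at -0.71 ± 0.12 (adjusted p = 0.000337), while Edn1 and Pdgfrb were not called. The summed vessel markers were at 11.79 to 12.03 without access and 11.14 to 11.59 with long access. Sums add linear signals, so that the brightest genes weigh most, Apoe in the astrocyte sum and Slc2a1 in the vessel sum. The fall of a sum is therefore not a fall of every marker in it.

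Oligodendrocyte genes did not move as a block. The transcription factor Sox10 read 8.35, 8.25, 8.12 and 8.44 without access, 9.32, 9.37, 9.62 and 9.64 with short access and 9.44, 9.37, 9.32 and 9.58 with long access. It rose by 1.14 ± 0.11 (adjusted p = 4.48e-06; 1.05 with the covariate, adjusted p = 0.0103) and did not overlap, and myelin-associated glycoprotein (Mag) rose by 0.55 at 1 of its 3 probe sets. Myelin basic protein (Mbp), Mog and transferrin (Tf) fell, at -0.36, -0.30 and -0.19, at 1 probe set each of the 2 tested for Mog and the 3 for Tf, and Cnp was not called at 0.00. Their sum was 15.62 to 15.78 without access and 15.40 to 15.58 with long access. Of 8 general neuronal genes 2 were higher (Syn1, Syp), 1 lower (Nefm) and 5 not called. Summed hypothalamic markers were higher, at 14.69 to 14.75 against 14.81 to 15.05, carried by Nnat, an imprinted gene, which read 12.78, 12.81, 12.79 and 12.78 without access and 13.49, 13.52, 13.59 and 13.70 with long access (0.79 ± 0.07, adjusted p = 1.76e-06). In the tissue check Nnat was as high or higher in another region, and Oxt (-0.05) and Avp (-0.10), which did mark hypothalamus, were not called. In bulk tissue fewer cells of a type and less RNA per cell cannot be told apart, and the part of these markers in the other results was not tested.

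Genes with more than 1 probe set gave a check within the array. Of 139 such genes, 12 had every probe set called higher, 6 every one called lower, 52 some called, 67 none called and 2 probe sets called in opposite directions. The 12 higher were Atp1b2, Bcl2l1, Eef2, Fgfr1, Grin2d, Grina, Kcna6, Kcnj10, Nptxr, Nrxn2, Pdgfa and Slc32a1. The 6 lower were Apoe, Glud1, Gnb1, Hspe1, Maoa and Mif. Probe sets made from the same clone can share oligonucleotides, so that they are not independent readings. Eef2, an elongation factor of translation, rose by 0.69 and 0.46, and Hspe1, a mitochondrial chaperone, was at -0.47 and -0.61. For Thra and Igfbp2, 2 of the genes with large differences, no other probe set was called. Thra, a thyroid hormone receptor, overlapped and differed by 1.21 ± 0.30 (adjusted p = 0.0077) at one and by -0.08 and 0.09 at 2 others. Igfbp2, a binding protein for insulin-like growth factors, differed by -1.25 ± 0.42 (adjusted p = 0.0372) at one and -0.07 at another, and its call was lost without any 1 of 5 arrays, no access 2 or 4 or long access 1, 3 or 4, with values of -1.33 to -0.91 and adjusted p from 0.0512 to 0.111, and with the spike-in covariate (-2.52, adjusted p = 0.0558).

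**Figure D5:**
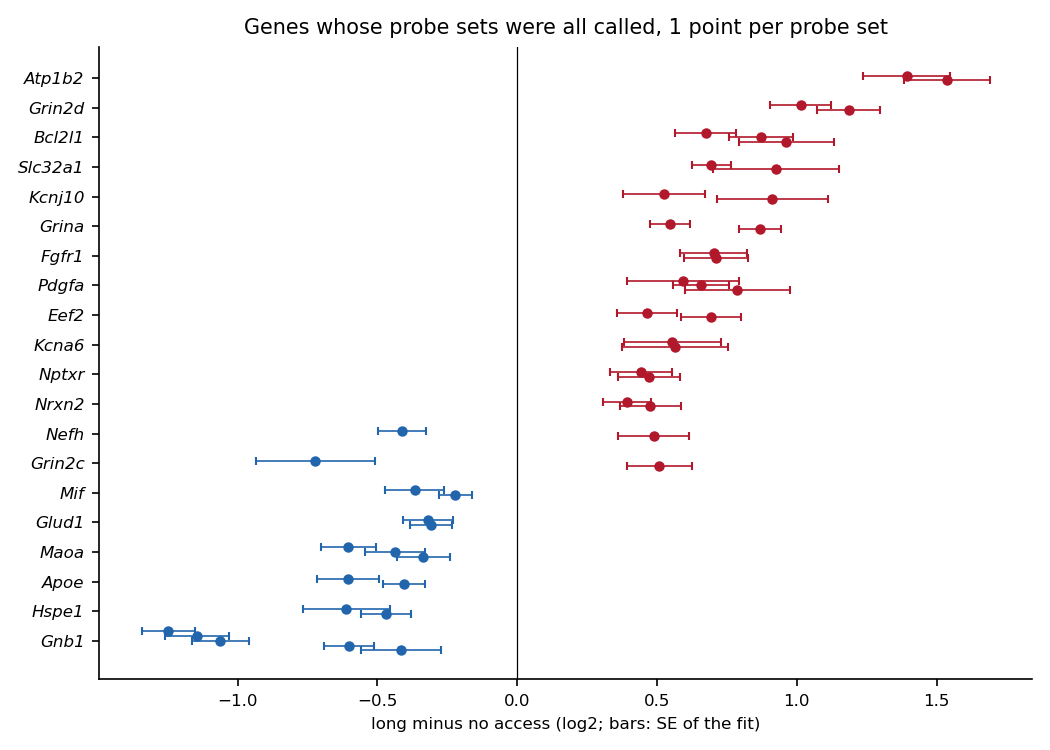
Long minus no access difference (log2, point; bar: SE of the fit) of each probe set of the 20 genes whose probe sets were all called. The 12 genes on top have every probe set above 0, Nefh and Grin2c have 1 on each side, and the 6 at the bottom have every probe set below 0, with Gnb1 at -1.25 to -0.42.

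Promoters of the genes that moved were read for motifs, since Vgf and Th, both called higher, are textbook genes with a cyclic AMP response element (CRE), the site bound by CREB. The promoters are those of RefSeq on rat GRCr8, 250 bases before to 50 after each gene start. They cover 39 genes called higher, 63 lower and 246 not called at the brightest probe set. The full CRE, TGACGTCA, reads the same on both strands. It was in at least 1 promoter of 5 of the 39 genes (12.8%), 2 of the 63 (3.17%) and 6 of the 246 (2.44%). Over all 33465 promoters, counted singly, it was in 1.83%. These measures are unlike, since a gene with several starts counts if any of its promoters holds the motif. Sites before the gene start are shown for named genes only, with flanking bases and the CRE in capitals. Th, Eef2, Vgf and Syn1 belong to the 5 genes called higher, and the fifth is not shown. The choice of the CRE was prompted by Th and Vgf, which are 2 of these 5, so that the share of 12.8% is not independent of that choice. Mif and Crem (2 starts) are the 2 called lower. Gnao1 is not among the 39, since its brightest probe set was not called (0.03).
Th, chr1:207508254-207508313, minus strand: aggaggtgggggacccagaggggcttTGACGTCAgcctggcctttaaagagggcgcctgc
Eef2, chr7:9189239-9189295, minus strand: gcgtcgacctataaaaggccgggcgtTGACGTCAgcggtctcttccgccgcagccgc
Vgf, chr12:25277077-25277136, minus strand: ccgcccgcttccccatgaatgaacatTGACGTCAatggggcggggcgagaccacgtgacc
Gnao1, chr19:11198525-11198584, minus strand: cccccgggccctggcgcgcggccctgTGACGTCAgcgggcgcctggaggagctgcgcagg
Syn1, chrX:3725529-3725588, plus strand: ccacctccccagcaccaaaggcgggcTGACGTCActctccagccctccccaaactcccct
Mif, chr20:12790270-12790329, plus strand: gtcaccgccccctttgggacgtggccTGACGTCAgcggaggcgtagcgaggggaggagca
Crem, chr17:58984715-58984774, plus strand: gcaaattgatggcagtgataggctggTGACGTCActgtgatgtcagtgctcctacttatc
Crem, second start, chr17:58985429-58985488, plus strand: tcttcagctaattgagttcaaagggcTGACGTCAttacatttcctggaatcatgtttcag
The site began 69, 31, 90, 121 and 190 bases before the start of Th, Eef2, Vgf, Gnao1 and Syn1. For comparison, the AP-1 motif TGANTCA was in 7.69%, 9.52% and 8.54% of the genes called higher, lower and not called. The EGR motif GCGTGGG was in 5.13%, 11.1% and 8.54%, the RE1 core TTCAGCACC in 0%, 0% and 0.813% and the GC box GGGCGG in 66.7%, 58.7% and 56.9%. Counted over single promoters, these motifs were in 7.33%, 4.33%, 0.356% and 33.1%, again not the same measure as a share of genes. All were searched on both strands, and an EGR motif followed by CGG also holds a GC box. No test was made, the motifs were chosen after the calls were seen, and a match of letters is not a bound site. The calls of Th and Crem rest on few arrays, as given above.

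The last question was whether these differences were seen in other regions. In the other 5 regions, whose arrays the choice did not use, the 96 probe sets higher here had median long minus no access differences of -0.08 to 0.14 and the 117 lower ones of -0.01 to 0.05. The medians here were 0.58 and -0.47, on the arrays by which these probe sets were chosen, so that part of the gap comes from the choice. Whether a difference here was unlike the mean of the other 5 was tested in 1 fit of all 63 arrays, which does not say that it was unlike each of them: Cck was also lower with long access in the nucleus accumbens, as given above. No label used here says whether arrays of different regions came from the same rats, and the fit took all arrays as independent. Of 858 probe sets 52 (6.06%) were more positive here and 58 (6.76%) more negative. The second count was 34 without no access array 4 and 38 without long access array 2 (limma). The largest were Nlgn3 at 2.19 (adjusted p = 0.000518), Adra2a at 1.90 (adjusted p = 6e-05), Ctxn1 at 1.83 (adjusted p = 5.44e-08) and Pdgfb at 1.57 (adjusted p = 0.0117), and on the other side Cck at -1.83 (adjusted p = 0.000141), Camk2d at -1.54 (adjusted p = 0.000299) and 1 probe set of the glutamate transporter Slc1a3 at -1.52 (adjusted p = 0.0145).

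Pdgfb and that probe set of Slc1a3 were under the filter in the lateral hypothalamus alone. Pdgfb was at the floor on all 4 no access arrays and at 6.36, 6.29, 7.04 and 5.97 with long access, and Slc1a3 read 6.90, 7.14, 6.64 and 7.34 without access and 5.93, 5.57, 6.17 and 5.54 with long access while its 3 tested probe sets, at -0.07, 0.09 and 0.12, were not called. Neither Hcrtr1 (-0.54, adjusted p = 0.316) nor Atp1b2 (1.33, adjusted p = 0.113) passed the test of the region difference. Syn1 (1.13, adjusted p = 0.0024), Map1a (1.24, adjusted p = 1.83e-05), Slc32a1 (0.68, adjusted p = 2.33e-05) and Pcp4 (-1.22, adjusted p = 2.25e-05) did. The control differences of -0.66 and -1.38 also belong to this region, beside the opposite ones of the ventral tegmental area.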

How the data were processed

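The deposited values are signal intensities on a linear scale, 1 per probe set and array, and MAS5 is named for them in the submitters' processing notes; its version and settings are not given in the sources used here. The authors had scaled the arrays to each other, since their deposited 2% trimmed means over all probe sets lay between 250.8 and 251.3. Per the labels, biotin-labelled cRNA from total RNA was hybridised. Arrays have no counts or depth, so their number limits the precision.

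Signals were multiplied by 1 factor per array that brought the 2% trimmed mean of its 1263 rat probe sets to 500, raised to 32 where lower, and put on the log2 scale. Any log2 value here was computed from the deposited intensity. No test included the 59 control probe sets. Probe sets with a mean of at least 100 over the 12 arrays were tested with limma 3.58.1 (lmFit, eBayes with an intensity trend) in R 4.3.3 over the 3 access groups, at a Benjamini-Hochberg adjusted p under 0.05. The region difference came from 1 fit of 63 arrays. The fits were tested on simulated data. MAS5 signal near background understates fold differences.

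Of the 1263 probe sets, 1137 had 1 gene symbol in the platform annotation, 8 several and 118 none. Among the 1263, 565 carry 1 of the suffixes _s, _f, _g, _r and _i, taken here together as a mark of possible cross-hybridisation. Named genes are the 12 largest rises and 12 largest falls, up to 4 members of each list, genes whose probe sets were all called or called in opposite directions, a set of peptides and their receptors, dopamine and activity genes, and the 4 largest region differences each way; other called members of a list are named where the list is described. The members, lists and rules were chosen with earlier results of these data known. The alternatives tried were quantile normalization, the deposited scale, other floors, filters and thresholds, a fit without the trend, weighted arrays, a table without the 565, a replicate block, other sets of arrays, 3 covariates (spike-in level, antisense level, actin ratio) and each array left out in turn. Same-numbered short and long access arrays deviated from their group means together (correlations of 0.16 to 0.34 in 4 of 4 pairs), so the long minus short count is also given with a replicate block. No correlation between arrays of the lateral hypothalamus exceeded 0.984. No scan date or hybridisation batch was used here.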

Additional observations from a re-analysis of the deposited data

Results flagged for a closer look

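In 13 of 186 groups of 4 arrays, 1 array lay far from the other 3, where chance gives about 1 in 20. With long access these were array 1 for Th (9.11) and Hcrtr2 (6.18), array 2 for Nlgn3 (8.40), Maob (10.05) and Kcnc2 (8.70), array 3 for Vegfb (8.91) and 1 probe set of Gnb1 (10.10), and array 4 for Enpp2 (10.36). Without access they were array 1 for S100b (8.84), array 2 for Rab3a (10.50) and Nefh (10.59), array 3 for Egr1 (9.79) and array 4 for Gria1 (6.61). The calls of Th and Maob depend on single arrays, as reported.

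The long minus no access difference itself differed between the lateral hypothalamus and the mean of the other 5 regions (limma interaction test, adjusted p under 0.05) for Nlgn3 by 2.19, Adra2a by 1.90, Ctxn1 by 1.83, Pdgfb by 1.57, Cck by -1.83, Camk2d by -1.54, 1 probe set of Slc1a3 by -1.52 and Gnb1 by -1.25 at 1 probe set (another gave -1.48, adjusted p = 0.012). Cck was also lower in the nucleus accumbens (-1.31), and the no access signals of Adra2a lay below the bacterial antisense controls. Without access all 4 arrays of Pdgfb were at the floor, so that its value is not a measured fold.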

How the results depend on the processing

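The counts of 96 higher and 117 lower stayed within 1.5 times with the values as deposited (90 and 103), quantile normalization, other floors and filters, no trend, array weights, the actin ratio as covariate and only 2 groups (87 and 99), and were 85 to 98 and 88 to 113 with 1 array left out. They moved in 1 fit of all 63 arrays (52 and 56), with the spike-in level (41 and 21) or antisense level (0 and 0) as a covariate and at 1.5-fold or more (48 and 43). The count of those lower also moved at an adjusted p under 0.01 (61). Without cross-hybridising probe sets the counts moved to 55 and 69, but only 385 probe sets were tested. Of the 119 main calls among those 385, 118 kept their call. The counts for the region difference, 52 and 58, were 37 to 55 and 34 to 52 with 1 array left out and moved with a replicate block (82 and 89). Without cross-hybridising probe sets the count of those lower moved to 34, with 465 probe sets tested in place of 858. The exact permutation tests of the controls gave p = 0.0286, the smallest possible, at all settings tried.

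Deviations of same-numbered arrays correlated at 0.03 to 0.23 between no and long access and 0.05 to 0.24 between no and short access, over 0.1 in 2 of 4 pairs each, so that the numbers were not taken to pair them. With the replicate block 103 probe sets were higher and 134 lower, and Hcrtr1 (-0.53) was not called (adjusted p = 0.051). Short and long access correlated over 0.1 in 4 of 4 pairs (0.16 to 0.34) and, with the block, chosen after seeing the data, 50 and 53 probe sets were higher and lower against 36 and 28; no long minus short call printed above changed.

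Over the alternatives the called named genes gave 2074 values with the same direction and call, 246 that lost the call and 13 that changed direction. The direction changed with the antisense covariate for Sdc3 (-1.07), Igfbp2 (2.22), Vim (0.52), Gabbr2 (-0.27), Nptxr (-0.024), Fgfr1 (-0.027), Plat (0.63), Ddc (0.19), Apoe (0.56), Il18 (0.13), Slc2a1 (0.16), Nefm (0.16) and Eef2 (-0.040), and for the uncalled Fos (-0.016), Slc6a3 (2.15) and Hcrtr2 (1.75). With the spike-in covariate it changed for the uncalled Avp (0.38), Pdyn (-0.081) and Oxt (0.20). The cause was not tested. The median SE over the 718 probe sets was 0.15 without and 0.29 and 0.54 with the spike-in and antisense covariates, in both of which long and no access arrays do not overlap.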

Other observations

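The serotonin and noradrenaline receptors other than Adra2a that passed the filter were not called at the brightest probe set. Of the 34 genes of the monoamine list on the array only 18 were tested. Htr1a was at 0.48, Htr1d at -0.38, Htr7 at -0.18, Adra2b at -0.25 and the dim Adrb3 at 0.90, the last with the largest difference of any uncalled member of the monoamine list. Among transcripts induced by activity, Junb and Nr4a3 had differences of 0.60 and 0.59 without passing the test, beside the called fall of Egr1. Of the uncalled growth factor genes, Tgfb3 was at -0.69 and Igf1 at -0.45.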
